A study of Sus scrofa with 4 samples.

Results

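The 9 retinoid genes described here bind, make, break down or respond to retinoic acid or carry its precursor retinol: CRABP1, CRABP2, RBP4, STRA6, ALDH1A1, ALDH1A2, ALDH1A3, CYP26B1 and RARB. They were taken by gene name from the deposited count tables, and all 9 were found among 29263 genes. Of these, 8 are listed by symbol, and RARB was found through its Ensembl identifier ENSSSCG00000011212. The group was proposed because CRABP1 was already known to be among the genes highest in the bright fraction, so the levels of these 9 genes are described and no test of them is given.

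The libraries come from porcine lung. All 4 have the genotype LGR5-H2B-GFP knock-in. This reporter marks cells that transcribe LGR5 with a fluorescent histone, H2B joined to the green protein GFP. Flow sorting on GFP gave 2 libraries of bright cells, GFP-HI, and 2 of cells without GFP, GFP-NEG, with biological replicate numbers 1 and 2 in each. The protocol covers adult and fetal lung and lists antibodies to EpCAM and NGFR, without saying which age or gate applies to these libraries. The name of the deposited table that compares them carries the words adult pig beside an unexplained code, D111. A histone-bound reporter can outlast transcription of the gene that drives it, so brightness reports past as well as present LGR5 transcription.

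Vitamin A circulates as retinol bound to RBP4 and can enter cells through the receptor STRA6. Inside the cell retinol is oxidised to retinal and then, by the ALDH1A enzymes, to retinoic acid, which CRABP1 and CRABP2 bind and CYP26 enzymes break down. Retinoic acid acts through nuclear receptors, the RARs paired with RXRs, which switch on target genes that include RARB itself. In the lung this signal takes part in early bud formation and in building alveoli, and some lung fibroblasts store retinol as esters in lipid droplets.

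GFP-HI had 3.67 times as many gene counts as GFP-NEG, with 24200550 and 24689986 counts against 6292253 and 7045652. Even so, more genes had any count in GFP-NEG (24120 and 25985) than in GFP-HI (18752 and 18392). The part of this excess in the genes called lower on few counts was not tested. LGR5 checked the sort: it had 3218 and 3073 counts in GFP-HI against 10 and 7 in GFP-NEG, and its log2 fold change was 7.03 (SE 0.716, adjusted p of 3.7e-19, edgeR quasi-likelihood test). Levels below are counts per 1000000 (CPM) of a library total scaled by edgeR's TMM factor. CPM is not corrected for gene length, so levels are compared between libraries and never between genes. These are bulk libraries, in which fewer cells of a type and less RNA per cell cannot be told apart.

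Both GFP-HI libraries were above both GFP-NEG libraries for 3 of the 9 retinoid genes (CRABP1, CRABP2 and ALDH1A1) and below them for 1 (ALDH1A2). The other 5 overlapped between the fractions. Over the 19682 genes that passed the filter on low counts, 27.7% were higher in both GFP-HI libraries and 42.0% were lower in both. Of the 9 genes, 8 passed that filter and STRA6 did not. The median log2 fold change of those 8 was 0.20, and -0.31 without CRABP1, whose high value prompted the group, beside -0.25 over all tested genes.

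**Figure D1:**
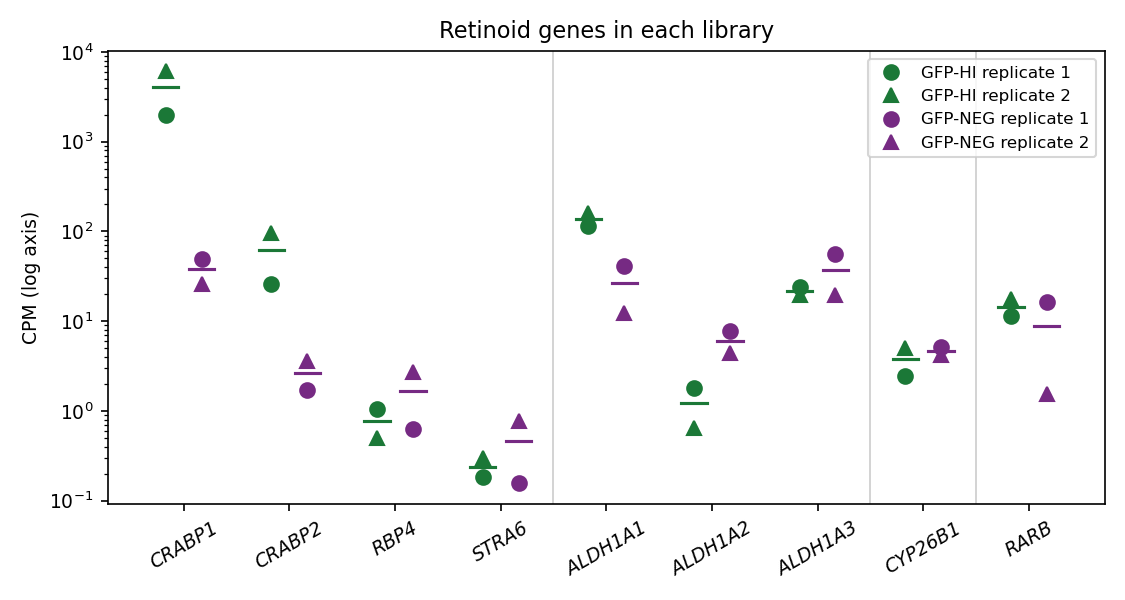
CPM of the 9 retinoid genes on a log axis, with 1 symbol per library and a short line at each group's mean of 2 libraries. CRABP1, CRABP2 and ALDH1A1 have both GFP-HI symbols above both GFP-NEG symbols, ALDH1A2 has them below, and the GFP-NEG symbols of RARB lie far apart.

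CRABP1, a small cytosolic protein that binds retinoic acid, had 44302 and 122605 counts in GFP-HI against 317 and 239 in GFP-NEG. These are 2007 and 6078 CPM against 49.2 and 26.2 CPM. The lower GFP-HI library was thus far above both GFP-NEG libraries, although the GFP-HI libraries differed from each other 3.03-fold. The group means were 4043 ± 2879 CPM and 37.7 ± 16.3 CPM (SD, n = 2 each), with a log2 fold change of 6.74. Within a replicate the ratio was 40.8 in replicate 1 (95% interval 36.5 to 45.7) and 232 in replicate 2 (204 to 265), exact intervals that cover counting error only. Leaving out single libraries gave log2 fold changes from 5.76 (without GFP-HI replicate 2) to 7.39 (without GFP-HI replicate 1).

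CRABP2, the related protein that hands retinoic acid to its nuclear receptors, had 577 and 1947 counts in GFP-HI against 11 and 33 in GFP-NEG. The CPM values were 26.1 and 96.5 against 1.71 and 3.62. As for CRABP1, GFP-HI replicate 2 was the highest library, here 3.69 times GFP-HI replicate 1. The ratio was 15.3 in replicate 1 (95% interval 8.49 to 30.8) and 26.7 in replicate 2 (18.9 to 38.9), and the log2 fold change was 4.50. It was 3.32 without GFP-HI replicate 2 and 5.24 without GFP-HI replicate 1. CRABP2 made up 1.29% and 1.56% of the counts of the pair in GFP-HI, and 3.35% (95% Wilson interval 1.88% to 5.91%) and 12.1% (8.77% to 16.6%) in GFP-NEG. The pair was therefore tilted further toward CRABP1 in GFP-HI, a shift that does not depend on how libraries are scaled. The high GFP-HI value of CRABP1 prompted the group, so this tilt is a description only.

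RBP4, the blood carrier of retinol, had 23 and 10 counts in GFP-HI against 4 and 25 in GFP-NEG, or 1.04 and 0.496 CPM against 0.621 and 2.74 CPM. The fractions overlapped, and the ratio went opposite ways in the replicates: 1.68 in replicate 1 (95% interval 0.573 to 6.67) and 0.181 in replicate 2 (0.0775 to 0.390). Its log2 fold change was -1.14, and 0.31 without GFP-NEG replicate 2. ALB, a marker of liver, which is the main source of RBP4, had 4 and 0 counts in GFP-HI against 1 and 16 in GFP-NEG. The summed level of 5 liver markers was 93.7 and 57.9 CPM in GFP-HI against 337 and 43.7 CPM in GFP-NEG. TF and APOA1 carried most of that sum, and both were higher in GFP-NEG replicate 1 than in replicate 2. ALB, APOA2 (25 and 65 counts in GFP-NEG) and AHSG (0 and 10) were higher in GFP-NEG replicate 2, as RBP4 was. The part of the liver markers in the RBP4 values was not tested. In the RefSeq table RBP4 overlaps PDE6C, so its few reads may be shared with that gene. STRA6, the membrane receptor for RBP4, was nearly undetected, with 4 and 6 counts in GFP-HI against 1 and 7 in GFP-NEG. Its ratio in replicate 1 had a 95% interval of 0.116 to 57.5, so a difference in STRA6 was not detectable at these counts.

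The 3 enzymes that make retinoic acid from retinal did not share a direction. ALDH1A1 had 2544 and 3234 counts in GFP-HI against 264 and 111 in GFP-NEG, or 115 and 160 CPM against 41.0 and 12.2 CPM. Both GFP-HI libraries were higher, and the GFP-NEG libraries differed from each other 3.37-fold. The ratio was 2.81 in replicate 1 (95% interval 2.48 to 3.20) and 13.2 in replicate 2 (10.9 to 16.1). The log2 fold change was 2.38, with 1.75 without GFP-NEG replicate 2 and 3.50 without GFP-NEG replicate 1.

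ALDH1A2, the main enzyme of retinoic acid synthesis in the embryo, had 40 and 13 counts in GFP-HI against 50 and 40 in GFP-NEG. The CPM values were 1.81 and 0.644 against 7.76 and 4.38, with both GFP-NEG libraries higher. GFP-NEG was 4.28 times GFP-HI in replicate 1 (95% interval 2.77 to 6.66) and 6.80 times in replicate 2 (3.56 to 13.9). The log2 fold change was -2.29, from -3.15 (without GFP-HI replicate 1) to -1.71 (without GFP-HI replicate 2). Mesothelial cells are a known site of ALDH1A2, and 3 of 6 listed mesothelial markers were found in the tables. WT1 had 0 and 2 counts in GFP-HI against 0 and 24 in GFP-NEG, and CALB2 was at 0 in both GFP-HI libraries. The summed level of WT1, CALB2 and BNC1 was 0 and 0.248 CPM in GFP-HI against 1.40 and 3.62 CPM in GFP-NEG. It was thus higher in GFP-NEG, as ALDH1A2 was. Within GFP-NEG they went opposite ways, with this sum higher in replicate 2 and ALDH1A2 higher in replicate 1. None of the 3 markers passed the filter on low counts. In GFP-NEG, CALB2 had 2 and 5 counts and BNC1 had 7 and 4. The part of mesothelial cells in the ALDH1A2 values was not tested.

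ALDH1A3, the third enzyme, had 527 and 392 counts in GFP-HI against 358 and 178 in GFP-NEG, or 23.9 and 19.4 CPM against 55.6 and 19.5 CPM. GFP-NEG replicate 1 stood above the other 3 libraries, which lay close together. GFP-NEG was 2.33 times GFP-HI in replicate 1 (95% interval 2.03 to 2.67) and 1.00 times in replicate 2 (0.836 to 1.20). The log2 fold change of -0.79 became 0.15 without GFP-NEG replicate 1. In the RefSeq table ALDH1A3 overlaps the uncharacterised gene LOC106509041.

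The make-up of the family, which is independent of library scaling, differed between the fractions in both replicates. ALDH1A1 held 81.8% (95% Wilson interval 80.4% to 83.1%) and 88.9% (87.8% to 89.9%) of all ALDH1A counts in GFP-HI. In GFP-NEG it held 39.3% (35.7% to 43.0%) and 33.7% (28.8% to 39.0%). ALDH1A3 held the largest share in GFP-NEG, at 53.3% and 54.1%, against 16.9% and 10.8% in GFP-HI. ALDH1A2 held 7.44% and 12.2% in GFP-NEG against 1.29% and 0.357% in GFP-HI. The enzymes differ in transcript length, so these shares compare libraries and do not rank the enzymes.

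**Figure D2:**
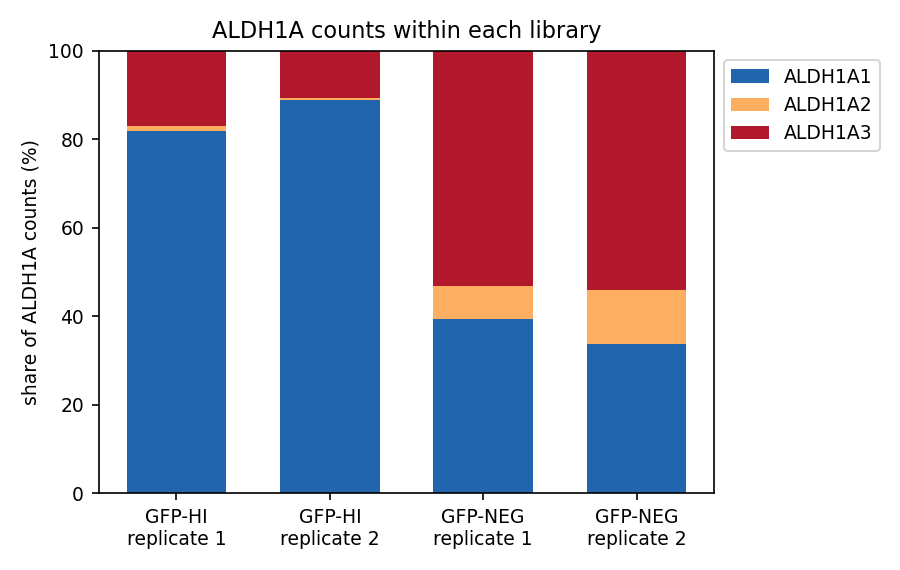
Share of each library's ALDH1A counts (percent) taken by ALDH1A1, ALDH1A2 and ALDH1A3. ALDH1A1 fills 81.8% and 88.9% of the GFP-HI bars, and ALDH1A3 is the largest part of both GFP-NEG bars (53.3% and 54.1%).

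CYP26B1, which breaks retinoic acid down, had 54 and 102 counts in GFP-HI against 33 and 38 in GFP-NEG. The CPM values were 2.45 and 5.06 against 5.12 and 4.17, so the fractions overlapped. The ratio was 0.477 in replicate 1 (95% interval 0.304 to 0.760) and 1.21 in replicate 2 (0.829 to 1.81). Its log2 fold change of -0.31 turned to 0.19 without GFP-HI replicate 1. Of the other members of the enzyme family, CYP26A1 had 2 and 0 counts in GFP-HI against 4 and 11 in GFP-NEG, and CYP26C1 had 0 and 0 against 0 and 5, and neither passed the filter.

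RARB, the retinoic acid receptor that retinoic acid itself induces, had 249 and 354 counts in GFP-HI, and its lowest library, GFP-NEG replicate 2, had 14. Its levels were 11.3 and 17.5 CPM in GFP-HI against 16.3 and 1.54 CPM in GFP-NEG. GFP-NEG replicate 1 lay within the GFP-HI range and GFP-NEG replicate 2 was 10.6 times lower, the widest gap between 2 libraries of a fraction among the 9 genes. The ratio was 0.692 in replicate 1 (95% interval 0.549 to 0.878) and 11.4 in replicate 2 (6.73 to 21.1). The log2 fold change was 0.71, with -0.18 without GFP-NEG replicate 2 and 3.23 without GFP-NEG replicate 1.

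**Figure D3:**
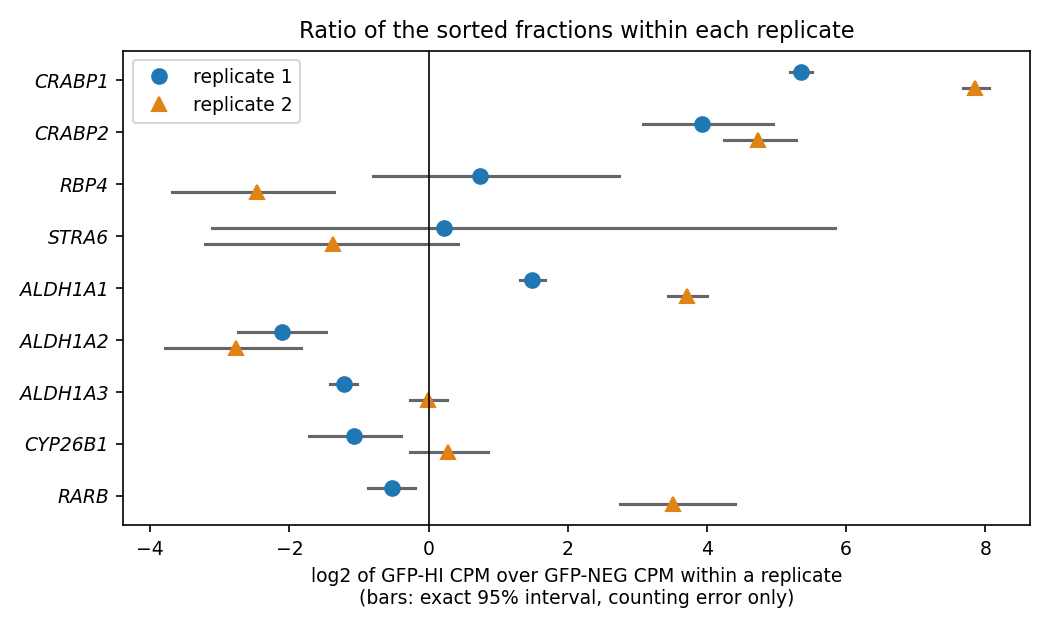
Log2 of the GFP-HI over GFP-NEG ratio of CPM within each replicate, with exact 95% intervals that cover counting error only. CRABP1, CRABP2 and ALDH1A1 lie right of 0 in both replicates, ALDH1A2 lies left of 0 in both, and RARB is on opposite sides with values of -0.53 and 3.52.

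Markers of fibroblasts, the collagen-producing stromal cells, moved with the fractions and with the replicates. All 8 fibroblast markers examined were higher in both GFP-HI libraries, 5 of them past the threshold (adjusted p under 0.05, edgeR). Their summed level was 79020 and 68820 CPM in GFP-HI against 25160 and 8970 CPM in GFP-NEG, so GFP-NEG replicate 1 held more of these transcripts than GFP-NEG replicate 2. Sums of smooth muscle and pericyte markers (2501 against 365 CPM) and of epithelial markers (674 against 185 CPM) were likewise higher in GFP-NEG replicate 1 than in GFP-NEG replicate 2, as were ALDH1A1, ALDH1A3 and RARB. SFTPC (301 against 62 CPM) and SCGB1A1 (238 against 44.5 CPM) carried most of the epithelial sum, while KRT18 was at 4.66 against 4.82 CPM. In GFP-HI the smooth muscle and pericyte list summed to 1639 and 2395 CPM and the epithelial list to 255 and 343 CPM. ACTA2 was the largest part of the smooth muscle and pericyte sum, at 751 and 1706 CPM in GFP-HI against 1617 and 187 in GFP-NEG. Members of that list went opposite ways: CSPG4 was higher past the threshold, and MYH11, DES and RGS5 were lower. Of the 8 epithelial markers, 2 were lower past the threshold. Endothelial markers (7 of 7), cartilage markers (6 of 6) and immune markers (6 of 8) were lower in GFP-HI past the threshold. Cartilage markers summed to 7071 CPM in GFP-NEG replicate 1 and 921 in replicate 2, against 285 and 129 in GFP-HI. Immune markers summed to 1443 and 2324 CPM in GFP-NEG and 241 and 382 in GFP-HI, and endothelial markers to 1364 and 560 against 187 and 186. Among adipocyte markers 3 of 6 were lower past the threshold, where 27.6% of all tested genes were. ADIPOQ (2 and 0 counts in GFP-HI against 13 and 30 in GFP-NEG) and LEP (0 and 0 against 8 and 16) were called on few counts. CIDEC was the only adipocyte marker with a log2 fold change above 0 (0.67), and it did not pass. The part of these cell types in the retinoid values was not tested.

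The 9 genes were also set against the fibroblast markers of their own library, a scale chosen after the data were seen. It divides the GFP-HI over GFP-NEG ratio of every gene by the same factor within a replicate, 3.14 in replicate 1 and 7.67 in replicate 2, so it moves the zero point and leaves the order of genes as it was. The sum is carried mostly by COL1A1, COL1A2 and COL3A1, none of which passed the threshold. CRABP1 had 25.4 and 88.3 counts per 1000 fibroblast marker counts in GFP-HI against 1.96 and 2.92 in GFP-NEG, ratios of 13.0 and 30.2. CRABP2 ratios were 4.87 and 3.48, and those of ALDH1A1 were 0.895 and 1.72. Ratios of the other 6 genes were below 1 in both replicates, except for RARB in replicate 2 (1.49). Measured per count of PDGFRA, a single fibroblast marker, the CRABP1 ratios were 4.82 and 9.36, the CRABP2 ratios 1.81 and 1.08, and the ALDH1A1 ratios 0.333 and 0.531.

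The genes whose profile over the 4 libraries was closest to that of CRABP1 were LGR5, IL13RA2, OSR2, PTN and SOSTDC1, in that order among 9823 genes with a symbol and at least 10 CPM in a fraction. Closeness was the Euclidean distance between centred log2 CPM values, from 1.13 for LGR5 to 1.82 for SOSTDC1, and it describes 4 libraries only. CRABP1 was chosen as high in GFP-HI, so genes close to it are high there too. LGR5 is the gene that drives the sorted reporter. OSR2, a zinc finger transcription factor, had 7197 and 5698 counts in GFP-HI against 61 and 26 in GFP-NEG. PTN, the secreted growth factor pleiotrophin, had 4850 and 11445 against 136 and 30, and SOSTDC1, a secreted BMP and Wnt antagonist, had 3575 and 10020 against 120 and 31. IL13RA2, a decoy receptor for interleukin 13, had 468 and 1597 against 6 and 0. Of the other 8 retinoid genes, 4 had at least 10 CPM in a fraction and could be ranked: CRABP2 at rank 28 (distance 2.72), ALDH1A1 at rank 267, RARB at rank 1719 and ALDH1A3 at rank 7911.

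Other genes of the retinoid pathway were examined with a list of 59 genes, of which 55 were found and 47 tested. In GFP-HI 13 were higher and 10 lower past the threshold, and 24 did not pass (edgeR quasi-likelihood test, Benjamini-Hochberg over all tested genes). Over all 19682 genes 8.35% were higher and 27.6% lower by the same rule. The list's median log2 fold change was 0.15. With 2 libraries a fraction, a gene that did not pass is not shown to be alike in both. The higher calls leaned on GFP-NEG replicate 2: without it 1 of the 13 was kept (MEIS2), the other 12 had adjusted p-values from 0.113 to 0.651, all 13 kept their direction, and the count over all genes fell too, from 1643 to 204. Without GFP-HI replicate 2, 8 of the 13 were kept, and 891 genes were higher overall. Of the 10 lower calls, 4 were kept without GFP-NEG replicate 2 and 6 without GFP-NEG replicate 1.

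Retinoic acid response genes, known targets of the receptors in other tissues, gave most of the higher calls: 8 of 11 tested rose, 2 fell and 1 did not pass. TGM2, a crosslinking transglutaminase, had 74671 and 45626 counts in GFP-HI against 4073 and 541 in GFP-NEG (log2 fold change 3.03, SE 1.01, adjusted p of 0.010, edgeR). MEIS2, a homeobox partner of HOX proteins, had 1196 and 1446 against 61 and 34 (3.27, SE 0.569, adjusted p of 5.7e-07). MEIS2 was past the threshold in each of the 9 alternative fits. Of the 8 genes, 5 kept their call without GFP-HI replicate 1 and 5 without GFP-HI replicate 2, and TGM2 lost it in both (adjusted p of 0.0539 and 0.067). RARRES1 and RARRES2, named for their response to retinoids, had log2 fold changes of 2.58 and 2.58, and RARRES2 encodes the chemokine-like protein chemerin. MEIS1 (2.20) and the nuclear receptors NR2F2 (2.29) and NR2F1 (1.98) rose as well.

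HOXA5, a homeobox gene of lung mesenchyme, rose, with a log2 fold change of 1.40 (edgeR, adjusted p of 0.024), but did not pass under DESeq2 (adjusted p of 0.117, and 0.00254 to 0.651 over all alternatives). Several of these 8 genes were far higher in GFP-NEG replicate 1 than in replicate 2, as RARB was, so the sizes depended on that library: without it TGM2 was at 5.57, HOXA5 at 2.98, NR2F1 at 3.76, NR2F2 at 3.64, MEIS1 at 3.61, MEIS2 at 4.08, RARRES1 at 3.29 and RARRES2 at 4.16. Without GFP-NEG replicate 2 the 8 values ran from 0.65 (HOXA5) to 2.73 (MEIS2). All 8 fibroblast markers were higher in GFP-HI too, and their part in these changes was not tested. CD38, an ectoenzyme of immune cells that retinoic acid induces in myeloid cells, fell by 3.68 (69 and 166 counts against 330 and 855, adjusted p of 1.6e-08, edgeR), as 6 of 8 immune markers did. CDX1, an intestinal homeobox gene named after its values were seen, was called lower on 2 and 1 counts against 11 and 59 but not without GFP-NEG replicate 2 (adjusted p of 0.305).

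Among genes of uptake and storage, 3 of 10 tested rose and 2 fell, where 8.35% of all tested genes rose and 27.6% fell. The share that fell was thus not above that of all tested genes. PLIN2, which coats lipid droplets, had 4765 and 10367 against 528 and 515 (2.40, SE 0.658, adjusted p of 0.0013), and was at 1.67 without GFP-HI replicate 2. RBP2, a cellular carrier of retinol best known from the intestine, had 568 and 1081 against 87 and 18 (2.37, SE 0.574, adjusted p of 2.4e-04), with 4.32 and 1.55 in the fits without GFP-NEG replicate 1 and 2, and it did not pass without GFP-HI replicate 2 (adjusted p of 0.117). The RBP2 count is uncertain, since reads can be shared between genes of one family.

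LRAT, the enzyme that makes retinyl esters for storage, had 0 and 3 counts in GFP-HI against 7 and 54 in GFP-NEG. It was called lower (adjusted p of 0.0015, edgeR), but not without GFP-NEG replicate 2 (adjusted p of 0.478) or without GFP-HI replicate 1 (0.0654), and its adjusted p ran from 0.00149 to 0.478 over 9 alternatives. TTR, the partner of RBP4 in blood, was called lower on 0 and 2 counts against 7 and 26, and lost that call without either GFP-NEG library (adjusted p of 0.0515 and 0.427). TTR was named after its values were seen.

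Among the 12 tested oxidoreductases that interconvert retinol and retinal, 1 rose (8.33%) and 3 fell (25.0%). These shares were close to the 8.35% and 27.6% over all tested genes. DHRS9, a retinol dehydrogenase found in macrophages, had 192 and 241 counts in GFP-HI against 1131 and 1056 in GFP-NEG, a fall of 3.82 on the log2 scale (SE 0.595, adjusted p of 1.7e-08, edgeR) that passed in all 9 alternative fits. RDH10, the main enzyme that oxidises retinol, had 730 and 527 against 91 and 116 counts, a log2 fold change of 1.14 (SE 0.557) that did not pass (adjusted p of 0.098). DHRS3, which reduces retinal back to retinol and is itself a retinoic acid target, had 2243 and 2544 against 1369 and 1620, a log2 fold change of -0.78 (SE 0.593, adjusted p of 0.33). DHRS4 rose by 1.29 (adjusted p of 0.040) and passed in 4 of the 9 alternative fits.

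Another 3 low genes were named after their values were seen. ADH4 and ALDH8A1 had 0 counts in both GFP-HI libraries and 8 and 24, and 7 and 35, in GFP-NEG. With a floor of 3 counts per GFP-HI library, ADH4 was 8.35-fold and ALDH8A1 7.31-fold below the smaller GFP-NEG value. These folds are not lower limits, since they leave out the counting error of that GFP-NEG value, 8 counts for ADH4 and 7 for ALDH8A1. Both lost their call without GFP-NEG replicate 2 (adjusted p of 0.209 and 0.241, the largest over 9 alternatives). SDR16C5 had 81 and 14 counts against 119 and 3, and its log2 fold change of -2.09 became 2.71 without GFP-NEG replicate 1. It did not pass with the replicate number as a block (adjusted p from 0.00238 to 0.514 over the alternatives).

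The other nuclear receptors did not move together. RARA had 1248 and 355 counts in GFP-HI against 607 and 836 in GFP-NEG, and fell by 1.33 on the log2 scale (SE 0.527, edgeR, adjusted p of 0.036). Its GFP-HI libraries differed widely, and without GFP-HI replicate 2 it was at -0.69 (adjusted p of 0.455). RARA passed in 4 of the 9 alternative fits, and not without either GFP-NEG library (adjusted p of 0.142 and 0.232) or under DESeq2 (0.0761). RARG had 1207 and 529 against 141 and 199 (log2 fold change 0.89, adjusted p of 0.19). RXRA was at 0.29 (adjusted p of 0.74) and RXRB at 0.15 (adjusted p of 0.89), and both were below 0 when libraries were scaled by size alone. RXRG, at the threshold with an adjusted p of 0.04996, had 92 and 210 against 223 and 52 counts, opposite directions in the replicates, and its log2 fold change of -1.46 became 0.35 without GFP-NEG replicate 1. With the replicate block RXRG did not pass.

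**Figure D4:**
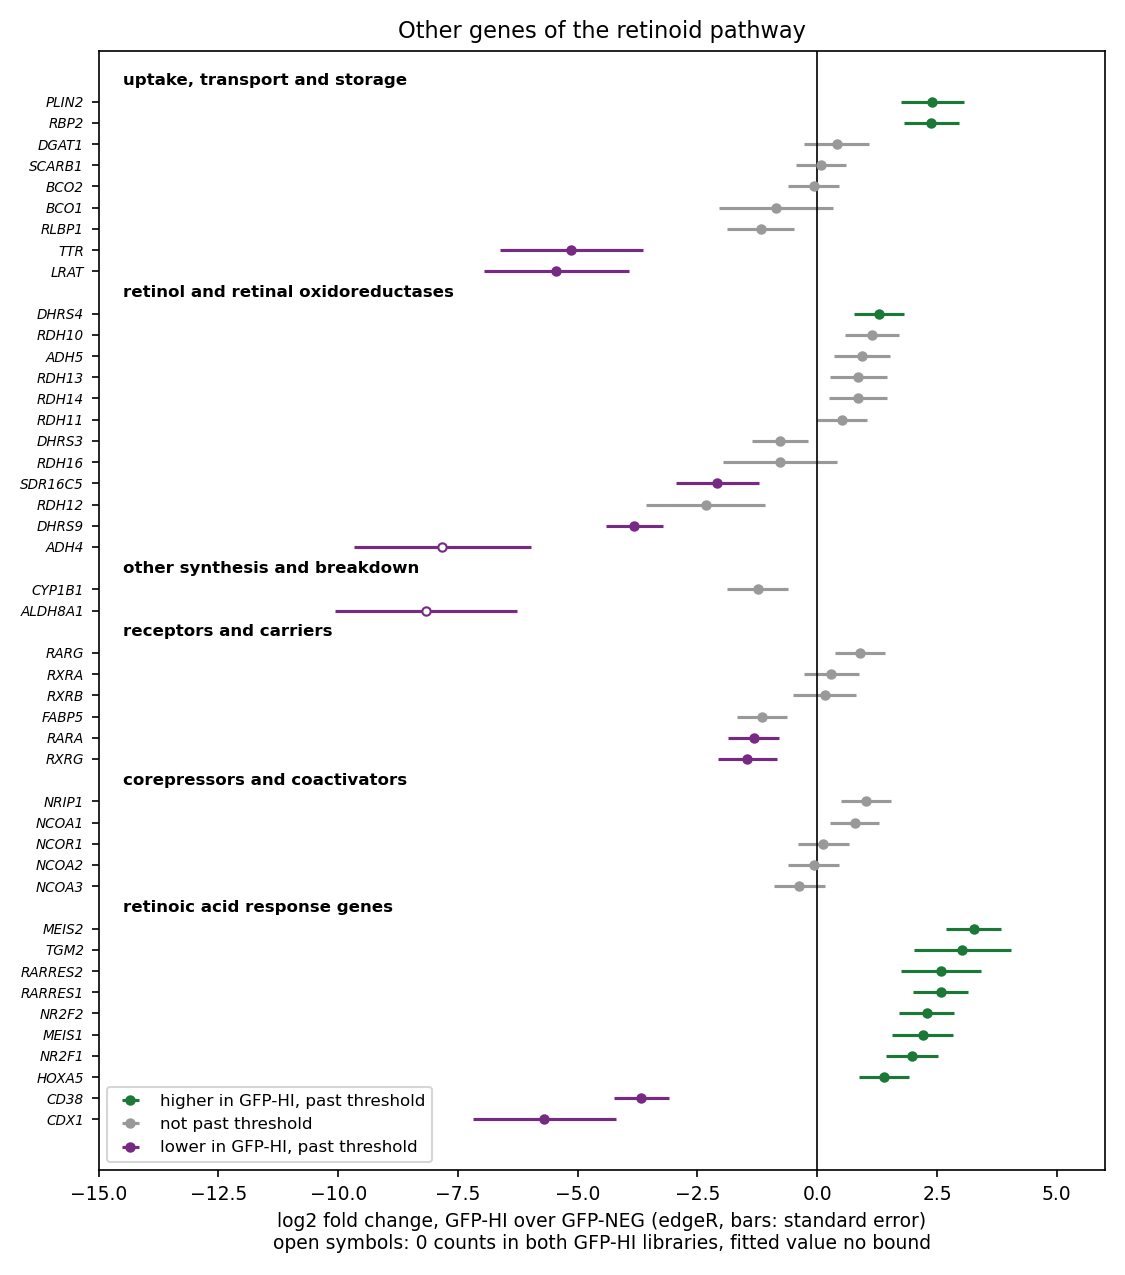
Log2 fold change (GFP-HI over GFP-NEG, edgeR) with its standard error for the tested genes of the pathway list (3 of the 47 are not shown), grouped by role and coloured by whether the adjusted p was under 0.05. The plot has 8 retinoic acid response genes right of 0 and past the threshold, among them the nuclear receptors NR2F1 and NR2F2. No gene grouped under receptors and carriers lies there.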

How the data were processed

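RNA-seq counts of 4 sorted lung cell libraries were used. The authors deposited raw gene counts, 1 file a library. The submitters' processing notes name featureCounts, Subread 1.5.2 and DESeq2 1.37.6. The aligner and strand setting are not given in the sources used here. No label or header names a genome build, and only the deposited table's name carries a number like that of Sscrofa11.1, so no coordinates are printed. The authors' deposited comparison table holds the same counts, log2 fold changes, p-values and adjusted p-values per the file headers, and was used to check the counts. Its column headings served to pair the replicates, and its fold changes and p-values are not reported here. The values in its 4 normalized columns were not used.

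Of the Ensembl identifiers, 834 were renamed with the symbol table provided. edgeR 4.0.16 (R 4.3.3; glmQLFit, glmQLFTest, TMM, filterByExpr, group as the only term) was run on all genes, with Benjamini-Hochberg adjustment and a threshold of 0.05. SE is the log2 fold change over the square root of F. The filter kept 19682 genes with 99.8% of counts. The procedure was tested on simulated data. One count was worth 0.0453 to 0.155 CPM. The labels call the replicates biological.

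The genes and lists were chosen with earlier results of these data known. Named genes are the 9 retinoid genes, LGR5, 13 receptors, enzymes, carriers and response genes of the pathway list, other list genes past the threshold with at least 10 CPM in a fraction, and the 5 nearest to CRABP1. Results of 3 pathway genes are counted but not reported here by name. Alternatives were the replicate number as a block, library-size and RLE scaling, no filter, DESeq2 1.42.0 and leaving out each library, where a lone library is assumed to vary like the other fraction. Replicate numbers were taken to pair libraries, because the headings of the deposited table's normalized columns name pig 1 and pig 2 in both fractions. Across genes, the replicate differences of the fractions correlated with an r of 0.160. Overlapping genes were read from the RefSeq table of assembly Sscrofa11.1. Wilson and exact binomial intervals (SciPy 1.17.1) are at 95% and cover counting error only. The scale to fibroblast markers and the counts by role under each alternative were added after the data were seen.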

Additional observations from a re-analysis of the deposited data

How the results depend on the processing

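Over 9 alternatives, the log2 fold changes of CRABP1, CRABP2, ALDH1A1 and ALDH1A2 kept their sign, while 4 changed it when 1 library was left out: RBP4 ran from -1.82 to 0.31 (without GFP-NEG replicate 2), ALDH1A3 from -1.36 to 0.15 (without GFP-NEG replicate 1), CYP26B1 from -0.89 to 0.19 (without GFP-HI replicate 1) and RARB from -0.18 (without GFP-NEG replicate 2) to 3.23. Library-size scaling moved the median of all tested genes from -0.25 to -0.68, the list median to -0.27, RXRA to -0.13 and RXRB to -0.30, and left 888 higher genes. Leaving out 1 library took RXRB from -0.0026 (without GFP-HI replicate 2) to 0.39, and RXRG from -2.25 to 0.35 (without GFP-NEG replicate 1). The list median was 0.15 with the replicate block, 0.11 under RLE scaling, 0.11 under DESeq2 and -0.0245 without a filter. Leaving out 1 library gave list medians from 0.22 to 0.38, 1 to 11 higher and 4 to 8 lower genes of the list, and 204 to 1539 higher and 1373 to 4680 lower genes overall. The replicate block kept 12 of 13 higher and 8 of 10 lower list calls, with SDR16C5 and RXRG both lost. The causes were not tested. Counts under about 10 in the GFP-NEG libraries, which had the smaller totals, limit RBP4, STRA6 and LRAT.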
